A study of Homo sapiens with 48 samples.

Results

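SNX631 was given to parental 22Rv1 cells in complete serum, and its effect on transcripts was measured in 6 of the 48 libraries of the series. The labels define the groups: 3 are Rv1-WT in FBS with 500 nM SNX631 for 72 hours, and 3 are Rv1-WT in FBS with 0.1% DMSO as vehicle for the same time. 22Rv1 is a human line of castration-resistant prostate cancer, Rv1-WT is its unmodified parent, and FBS is fetal bovine serum, which contains androgen. SNX631 is a selective inhibitor of CDK8 and CDK19, so this comparison asks which transcripts depend on these kinases in parental cells that have both and in which androgen is present. For comparison, the text uses the same treatment in Rv1-WT in charcoal-stripped serum (CSS, depleted of androgen), in Rv1-Luc (Rv1-WT transduced with lentivirus for firefly luciferase and blasticidin resistance) and in 4 derivatives in FBS. In the derivatives CDK8 and CDK19 were both knocked out by CRISPR/Cas9 and 1 kinase was then put back by lentivirus: active CDK8 (dKO-8), active CDK19 (dKO-19), or a kinase-dead form of CDK8 (dKO-8M) or CDK19 (dKO-19M). Each of these groups has 3 libraries with SNX631 and 3 with vehicle.

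CDK8 and CDK19 are closely related kinases that bind cyclin C and, with MED12 and MED13 or their paralogs, form the kinase module of Mediator, the complex that links transcription factors to RNA polymerase II. The module can hold back or promote transcription, depending on the gene, and its kinases phosphorylate several transcription factors. In prostate cancer cells, KLK3 (prostate-specific antigen) and TMPRSS2 are among the usual readouts of the response to androgen.

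The 6 libraries held 13.2 to 18.0 M counts and 23911 to 24877 genes with a count, and neither range separated the groups. In a principal component analysis of these 6 libraries the first component, with 48.4% of the variance, separated the vehicle libraries (-17.15 to -16.38) from the SNX631 libraries (16.21 to 16.99). Luminal prostate markers summed to between 51363 and 70633 counts per library. The leukocyte markers summed to at most 9 counts and the endothelial markers to at most 2. Of 6 basal markers, KRT5, KRT14 and TP63 had at most 3 counts in each library. The other basal markers were DST, with 873 to 1384 counts, ITGB4, with 15 to 30, and NGFR, with 4 to 23. Fibroblast markers summed to between 238 and 272 counts under vehicle and between 313 and 417 under SNX631, with COL3A1 and LUM called higher. Of the groups used for comparison, 2 had a vehicle library that stood apart, replicate 1 of dKO-19M (17.69 and 17.09 chi-square units per degree of freedom from its replicates) and replicate 1 of Rv1-Luc (9.705 and 5.135), whereas pairs of replicates among the 6 libraries had 1.905 to 2.738. Whether replicates were separate cultures is not stated, so the p-values measure the spread between these libraries.

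SNX631 raised more transcripts than it lowered. By edgeR's quasi-likelihood test, with a threshold of 0.01 on the false discovery rate (FDR) and a change of over 1.5-fold, 479 of 20009 genes were called (2.39%), with 350 higher (1.75%) and 129 lower (0.645%). The 3 SNX631 libraries did not overlap the 3 vehicle libraries for 349 of the 350 and 128 of the 129. Over all genes tested, the groups failed to overlap in 15.6% upward and 14.5% downward. Most changes were moderate: the median log2 change was 0.99 among the genes called higher and -0.86 among those called lower, and 39 and 5 genes passed a log2 change of 2 and -2. The called genes were also less abundant than the rest, with a median of 5.75 CPM (counts per 1 M, scaled by the trimmed mean of M values) for those higher and 6.91 for those lower, against 12.67 over all genes. Without the fold limit, at an FDR under 0.05, the split was nearly even, with 1537 genes higher (7.68%) and 1358 lower (6.79%). A direct test against a 1.5-fold change called 111 genes, 92 higher and 19 lower.

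**Figure D1:**
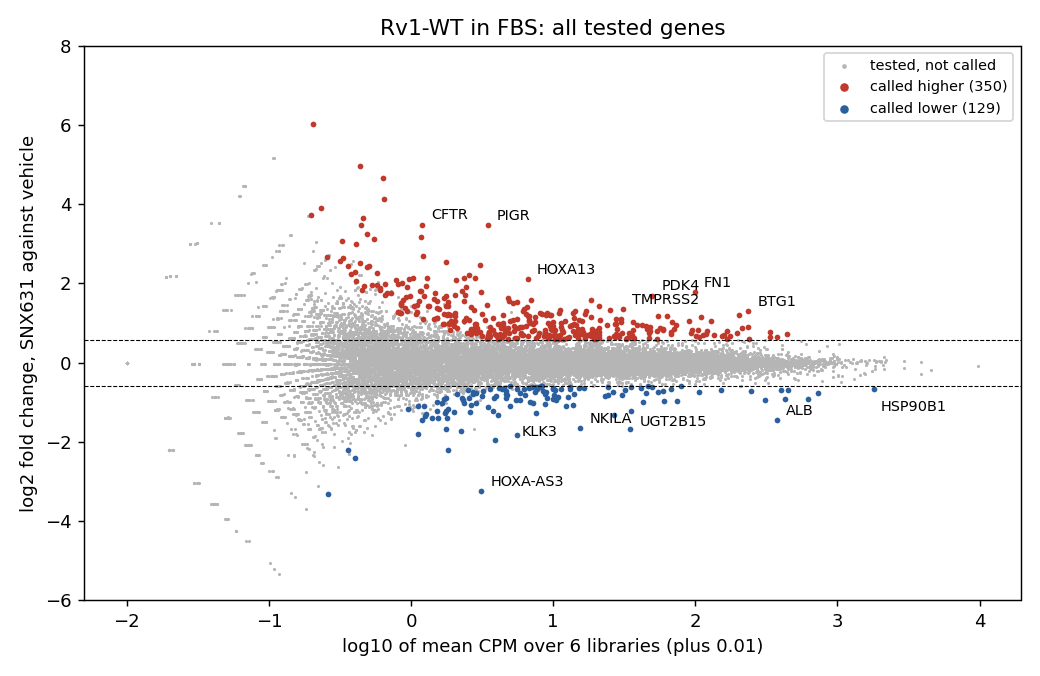
Log2 fold change of SNX631 against vehicle (vertical axis) against the log10 of the mean CPM over the 6 libraries (horizontal axis) for the 20009 genes tested in Rv1-WT in FBS. Red points are the 350 genes called higher, blue points the 129 called lower, grey points the rest, and dashed lines mark 1.5-fold; red points outnumber blue ones, mostly at low and middle abundance, while HSP90B1 is the most abundant gene called lower.

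The most certain rise was that of BTG1 (chr12:92140278-92145897, GRCh38), an antiproliferative gene that is often high in resting cells. Its CPM was 133, 138 and 137 under vehicle and 335, 333 and 338 under SNX631. All 3 treated libraries lay above all 3 controls, and the log2 change was 1.30 ± 0.0388 SE (edgeR FDR 1.6e-34). PDK4, a kinase that shuts pyruvate out of oxidation in mitochondria, went from 23.1, 22.8 and 25.1 CPM to 78.1, 73.6 and 76.7 (log2 change 1.69 ± 0.0734 SE, edgeR FDR 2.24e-26). SYT4, a synaptotagmin of secretory vesicles, went from 119, 124 and 126 CPM to 268, 301 and 287 (1.21 ± 0.0489 SE, edgeR FDR 7.22e-28). The groups did not overlap for either gene. Of the 10 genes with the lowest p-values, 8 were higher. The others among them include TRIB1 (log2 change 1.02), a pseudokinase that steers ubiquitination, FAM110B (1.06), NET1 (0.66), a RhoA exchange factor, and TMPRSS2 (1.36).

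The pair that was lower among these 10 was TRGC1 and TARP, overlapping genes of the T cell receptor gamma locus from which prostate cells make the TARP transcript. TRGC1 was at 96.5, 96.0 and 100.3 CPM under vehicle and at 50.2, 51.7 and 48.4 under SNX631 (log2 change -0.96 ± 0.0462 SE, edgeR FDR 1.69e-24). TARP fell by 0.97 on the log2 scale (edgeR FDR 5.65e-23). The levels barely varied within a group, but reads of this locus are shared: the deposited counts were fractional in 97.9% of all libraries for TRGC1 and in 93.8% for TARP, so the pair are not independent observations. Counts were fractional in 35.4% of libraries for BTG1.

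The largest rises, among genes with a mean of at least 1 CPM, started from near silence. CFTR, the chloride channel of secretory epithelia, had 4, 3 and 2 counts under vehicle (0.235, 0.201 and 0.13 CPM) and 44, 28 and 34 under SNX631 (2.65, 2.07 and 1.83 CPM). PIGR, which carries polymeric immunoglobulins across epithelia, went from 0.529, 0.536 and 0.649 CPM to 6.94, 5.75 and 6.36. RFX6, a transcription factor of gut and pancreatic endocrine cells, went from 0.235, 0.201 and 0.26 CPM to 2.78, 1.62 and 1.94. In each the groups were far apart, with log2 changes of 3.48 ± 0.447 SE for CFTR, 3.47 ± 0.275 for PIGR and 3.17 ± 0.362 for RFX6 (edgeR FDR 1.54e-08, 4.32e-15 and 6.24e-10). The rest of the 15 largest were SLC5A8 (2.70), KCNK17 (2.56), CGA (2.46), PTGS2 (2.22), CRYAB (2.15), EVX1 (2.14), SYT11 (2.14), TGM2 (2.13), HOXA13 (2.11), PCDH17 (2.09), CERKL (1.93) and SLC26A3 (1.92). Among them are ion and solute transporters (SLC5A8, KCNK17, SLC26A3), the alpha subunit of the glycoprotein hormones (CGA) and the inducible cyclooxygenase (PTGS2). PTGS2 was at 0.823, 1.00 and 0.843 CPM under vehicle and at 4.71, 4.43 and 3.40 under SNX631. Of the whole set, SYT11 alone lost its call in the direct test against 1.5-fold.

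The largest falls reached genes of higher abundance. HOXA-AS3, an antisense transcript of the HOXA cluster, went from 4.41, 5.89 and 6.49 CPM to 0.483, 1.03 and 0.324 (log2 change -3.25 ± 0.317 SE, edgeR FDR 4.12e-12). ALB, the serum albumin gene, went from 555, 564 and 534 CPM to 204, 202 and 199.5 (-1.45 ± 0.0711 SE, edgeR FDR 3.96e-19). DHRS2, a short-chain reductase, went from 49.0, 57.8 and 53.0 CPM to 17.7, 15.9 and 16.4 (-1.67 ± 0.15 SE, edgeR FDR 1.68e-10). No treated library reached a vehicle library in these 3 genes. NKILA, a noncoding transcript that binds the NF-kappaB inhibitor complex, went from 23.8, 25.1 and 21.9 CPM to 6.33, 7.97 and 8.09 (-1.66 ± 0.1 SE, edgeR FDR 5.01e-20). The others of the 15 lowest were HERC5 (log2 change -2.22), UGT2B10 (-1.96), CNTD1 (-1.82), CPN1 (-1.81), PROC (-1.72), COL10A1 (-1.68), GNG13 (-1.41), SLC22A31 (-1.39), ALOXE3P1 (-1.35), SLC45A3 (-1.33) and KLK3 (-1.27). 3 of these calls were lost on leaving out 1 library, though the log2 changes kept their sign. CPN1 was at -1.52 without vehicle replicate 2 and at -1.60 without SNX631 replicate 2. COL10A1 was at -1.60 without vehicle replicate 1 and at -1.45 without SNX631 replicate 1, and SLC22A31 was at -1.02 without SNX631 replicate 3. Libraries were strand-specific, but the use of strand in counting is not stated, so an antisense transcript such as HOXA-AS3 or NKILA cannot be told apart with certainty from its partner.

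Of the 479 called genes, 35 had a mean of at least 100 CPM, 24 higher and 11 lower. Those lower include secretory pathway and sterol genes described next, and also TXNIP and HSPB6. TXNIP, an inhibitor of thioredoxin and of glucose uptake, was at 419, 396 and 399 CPM under vehicle and at 215, 214 and 204 under SNX631 (log2 change -0.94 ± 0.0682 SE, edgeR FDR 6.81e-14). Its treated libraries lay far below the controls. Abundant genes that rose include the epithelial transcription factor EHF (log2 change 0.88), FAM111B (0.72), SFN (0.66), which encodes the 14-3-3 sigma protein, SMOC1 (1.16) and the demethylase gene FTO (0.71).

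**Figure D2:**
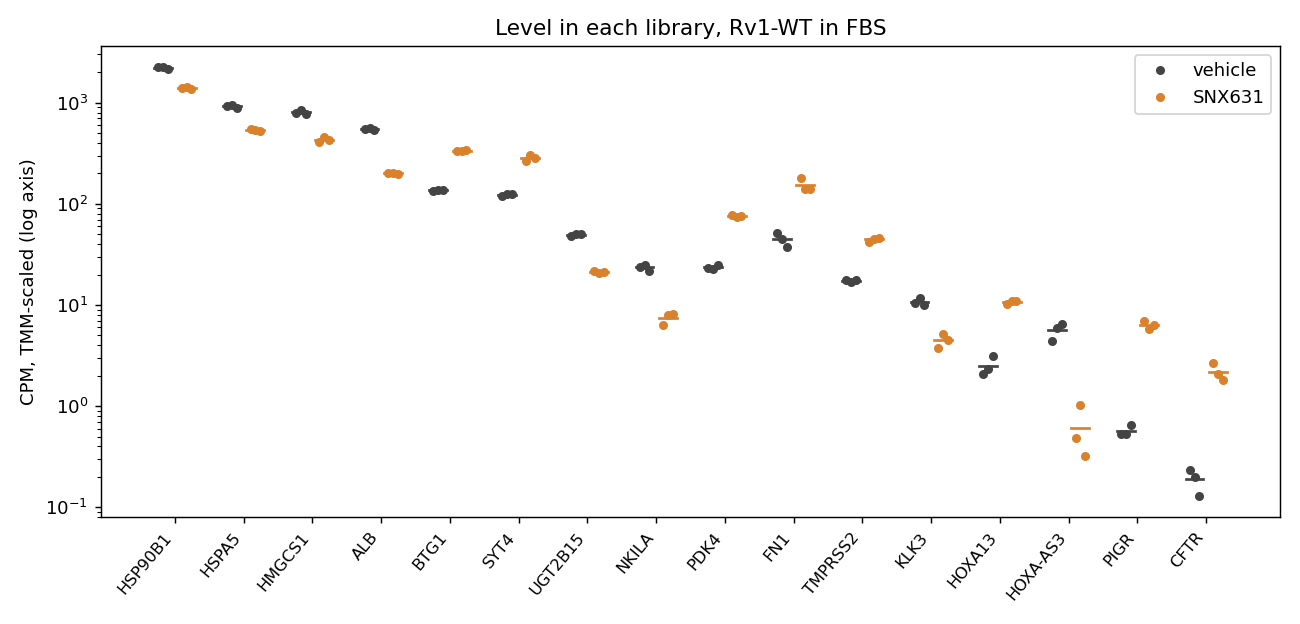
CPM in each library (points, log axis) for 16 genes in Rv1-WT in FBS, vehicle in grey and SNX631 in orange, with a line at each mean of 3 libraries. The groups do not overlap for any of the 16, from HSP90B1 at over 1300 CPM to CFTR at under 3 CPM.

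Genes of protein folding in the endoplasmic reticulum (ER) were lower. The unfolded protein response raises these chaperones when folding in the ER lags, through ATF6, XBP1 and the PERK branch. Of 23 genes of this list, 4 were called lower with 0 called higher, 15 were lower at an FDR under 0.05 with 1 higher, and 22 had a negative sign, with a median log2 change of -0.23 against 0.003 over all genes. Over all genes 0.645% were called lower and 6.79% were lower at an FDR under 0.05. The 4 were HSPA5 (the chaperone BiP), HSP90B1 (the ER form of HSP90), PDIA4 (a disulfide isomerase) and HERPUD1 (a factor of ER-associated degradation). The promoters of HSPA5 and HSP90B1, and that of CALR (the chaperone calreticulin), are shown since they hold the ER stress response element to which ATF6 is known to bind. They are RefSeq sequences (GRCh38.p14, 250 bases before to 50 after the start), with capitals for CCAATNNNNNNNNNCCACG on either strand.
HSPA5, chr9:125241294-125241593, minus strand: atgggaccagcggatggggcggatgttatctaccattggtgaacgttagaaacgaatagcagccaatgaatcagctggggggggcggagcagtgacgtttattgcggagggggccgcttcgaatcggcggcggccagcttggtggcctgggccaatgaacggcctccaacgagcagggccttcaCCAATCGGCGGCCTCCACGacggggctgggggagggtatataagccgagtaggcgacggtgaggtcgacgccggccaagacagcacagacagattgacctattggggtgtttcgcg
HSP90B1, chr12:103930160-103930459, plus strand: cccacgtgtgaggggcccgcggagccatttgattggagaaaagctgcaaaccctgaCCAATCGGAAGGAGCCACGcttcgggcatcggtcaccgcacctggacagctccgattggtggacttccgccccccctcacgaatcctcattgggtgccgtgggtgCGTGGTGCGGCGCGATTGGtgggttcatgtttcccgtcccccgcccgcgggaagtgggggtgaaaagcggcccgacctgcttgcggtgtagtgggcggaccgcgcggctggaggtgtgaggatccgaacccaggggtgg
CALR, chr19:12938359-12938658, plus strand: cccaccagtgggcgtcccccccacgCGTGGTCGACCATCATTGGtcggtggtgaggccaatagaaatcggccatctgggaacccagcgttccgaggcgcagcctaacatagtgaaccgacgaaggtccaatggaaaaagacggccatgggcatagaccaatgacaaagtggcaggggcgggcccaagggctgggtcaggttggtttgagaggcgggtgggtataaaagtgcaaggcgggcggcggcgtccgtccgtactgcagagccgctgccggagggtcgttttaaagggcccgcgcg
The element begins 66 bases before the start of HSPA5, 194 and 89 bases before that of HSP90B1 and 225 before that of CALR. This motif was searched for after the values were seen. It was in promoters of 7 of the 21 ER genes with a sequence (33.3%) and of 25 of all 27305 genes (0.0916%). The list was made of known genes of this response, so its larger share is not a result of these data. The other genes of the list with it were CANX, CRELD2, PDIA6 and XBP1, and no match was found in the windows of PDIA4 and HERPUD1. A match is a description of the sequence and not evidence of binding.

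HSPA5 was at 932, 940.1 and 894 CPM under vehicle and at 553, 541 and 523 under SNX631 (log2 change -0.77 ± 0.0508 SE, edgeR FDR 5.52e-18). HSP90B1 went from 2238, 2235 and 2168 CPM to 1384, 1441 and 1360.1 (-0.67 ± 0.0408 SE, edgeR FDR 9.22e-20). PDIA4 went from 504, 499.9 and 483 CPM to 299, 315 and 311 (-0.69 ± 0.0495 SE, edgeR FDR 6.17e-17). All 3 were lower in every treated library, and no treated library reached a control. HERPUD1 fell by 0.68 on the log2 scale, from a mean of 187 to 117 CPM. Other members passed an FDR of 0.05 below the fold limit, among them MANF (-0.45), DNAJC3 (-0.37), CALR (-0.34), CANX (-0.30) and PDIA3 (-0.26). XBP1 had the opposite sign, at 221, 209.7 and 235 CPM under vehicle and 242, 242 and 245 under SNX631 (0.13, edgeR FDR 0.0123). HSPA5 kept its call in the direct test against 1.5-fold, and HSP90B1, PDIA4 and HERPUD1 did not. Counts were fractional in 50% of libraries for HSP90B1 and CALR and in 52.1% for HERPUD1.

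The cholesterol pathway showed a small shift across nearly the whole list. Its genes are driven by SREBF2 when sterols are low. All 25 tested genes of sterol synthesis and uptake had a negative sign and 20 were lower at an FDR under 0.05, where 6.79% of all genes were, with a median log2 change of -0.35. For 24 of the 25 the SNX631 libraries lay below all vehicle libraries, where 14.5% of all genes did so. The fold limit was passed by HMGCS1, which makes HMG-CoA, and INSIG1, which retains the SREBP complex in the ER. Over all genes 0.645% were called lower. HMGCS1 was at 793, 853 and 776 CPM under vehicle and at 405, 455 and 428 under SNX631 (log2 change -0.91 ± 0.137 SE, edgeR FDR 6.68e-06). INSIG1 went from 550.1, 557 and 548 CPM to 322, 362 and 345 (-0.69 ± 0.106 SE, edgeR FDR 1.03e-05). Neither gene overlapped between the groups, and neither call held in the direct test against 1.5-fold. The sterol isomerase EBP had a log2 change of -0.53 (edgeR FDR 2.23e-07) and SREBF2 itself one of -0.21 (edgeR FDR 0.0013). PMVK, at -0.02, was the member nearest to 0. In 18 genes of the list with a promoter sequence, the sterol regulatory element TCACNCCAC was found in 1, SREBF2, against 1.39% of all 27305 genes. Fatty acid synthesis, which SREBF1 drives, was mixed: 0 of 11 genes were called, where 2.39% of all genes were. FASN was at -0.29, FADS2 at -0.38 and ELOVL5 at 0.33.

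**Figure D3:**
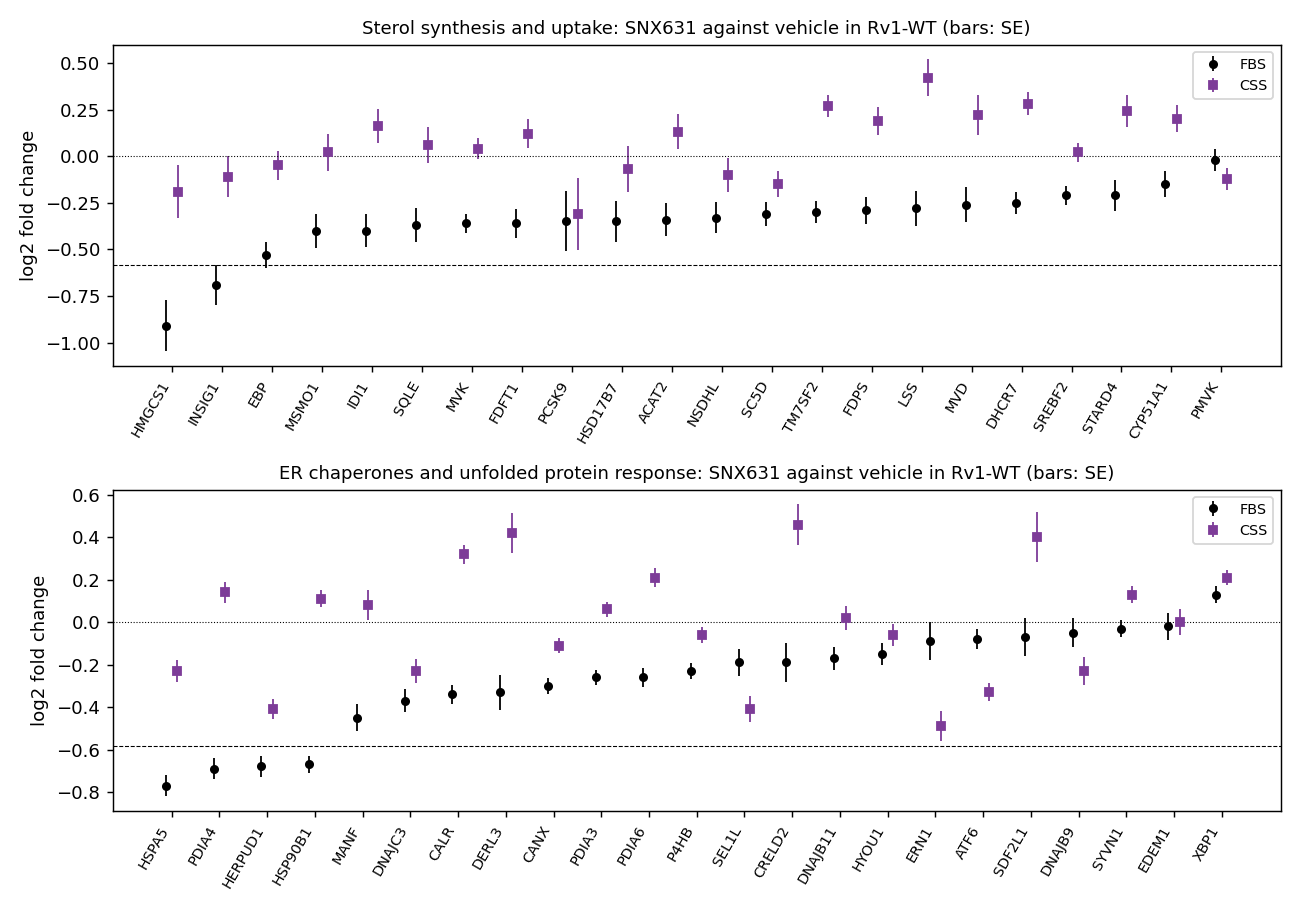
Log2 fold change of SNX631 against vehicle with its SE for 22 of the 25 genes of the sterol list and for the ER chaperone list in Rv1-WT, in FBS (black circles) and CSS (purple squares), with dashed lines at a 1.5-fold fall. In FBS the 22 sterol genes shown and 22 of the 23 ER genes lie below 0, while in CSS both lists have a median of 0.02.

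The ATF4 stress response covers amino acid synthesis and uptake and stress regulators. Among its 31 genes, 3 were called lower, against 0.645% of all genes, with 0 called higher, and the median log2 change was -0.14. DDIT3, the transcription factor CHOP, went from 68.4, 67.8 and 68.8 CPM to 43.8, 40.6 and 38.7 (-0.74 ± 0.0572 SE, edgeR FDR 1.08e-15). CHAC1, which breaks down glutathione, went from 31.0, 25.3 and 32.8 CPM to 18.2, 15.3 and 16.6 (-0.83 ± 0.165 SE, edgeR FDR 0.000395). NIBAN1, a stress-induced regulator of translation, went from 56.2, 56.3 and 57.7 CPM to 38.7, 28.0 and 33.5 (-0.76 ± 0.0898 SE, edgeR FDR 8.54e-09). The groups did not overlap in these 3, and the calls did not hold in the direct test against 1.5-fold. ASNS, asparagine synthetase, was at -0.58, SLC7A11, the cystine transporter, at -0.51 and ATF4 itself at -0.16, all with an FDR under 0.05 and under the fold limit, while TRIB3 was at 0.00 and PHGDH at -0.06. The 20 cytosolic aminoacyl-tRNA synthetases, also ATF4 targets, had a median of 0.02 and 0 calls. The promoter of CHAC1 is shown for its CEBP-ATF element, the site of ATF4 (RefSeq, GRCh38.p14, TTGCATCA on either strand in capitals, 209 bases before the start).
CHAC1, chr15:40953221-40953520, plus strand: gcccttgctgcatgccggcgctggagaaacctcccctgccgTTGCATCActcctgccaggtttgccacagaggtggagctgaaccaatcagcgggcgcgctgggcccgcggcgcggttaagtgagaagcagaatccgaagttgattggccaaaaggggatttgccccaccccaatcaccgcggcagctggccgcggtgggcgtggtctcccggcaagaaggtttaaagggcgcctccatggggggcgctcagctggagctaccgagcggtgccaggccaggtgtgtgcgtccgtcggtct
This element was in promoters of 2 of 25 genes of the list, CHAC1 and FGF21, and of 1.08% of all genes.

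Androgen-responsive genes moved in both directions. Of 23 androgen-responsive genes, 4 were called higher and 3 lower, against 1.75% and 0.645% of all genes, and the median was 0.02. TMPRSS2, a surface protease, went from 17.8, 16.9 and 17.5 CPM to 42.2, 45.4 and 46.2 (1.36 ± 0.072 SE, edgeR FDR 1.68e-22). KLK4, a protease of the kallikrein family, went from 127, 115 and 121 CPM to 213, 214 and 208 (0.80 ± 0.0613 SE, edgeR FDR 1.59e-15). These genes and ELL2 (0.65), a subunit of the elongation complex, were thus higher in every treated library. SLC45A3, a sugar transporter of prostate cells, went the other way, from 38.3, 38.0 and 38.6 CPM to 14.7, 15.6 and 15.4 (-1.33 ± 0.087 SE, edgeR FDR 1.21e-18). KLK3 was at 10.5, 11.6 and 9.93 CPM under vehicle and 3.74, 5.16 and 4.48 under SNX631 (-1.27 ± 0.152 SE, edgeR FDR 2.75e-09). KLK2, a kallikrein next to it, went from 18.2, 19.0 and 16.5 CPM to 10.7, 10.7 and 9.60 (-0.80 ± 0.176 SE, edgeR FDR 0.00113). No treated library of these 3 reached a control, but without SNX631 replicate 3 KLK2 was at -0.74 and not called. FKBP5 (0.02), NDRG1 (-0.01), ABCC4 (-0.01) and PMEPA1 (-0.07) had values near 0.

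The kallikrein genes lie together at chr19:50819148-51084245, and their changes were split within the cluster. Of 10 tested there, KLK4 was called higher and KLK3 and KLK2 lower, against 1.75% and 0.645% of all genes. KLK1 was at 0.31 (edgeR FDR 0.00342) and KLK15, between KLK1 and KLK3, at 0.66 (FDR 0.0249), both under a limit of the call, and KLK11 was at -0.06. Counts were fractional in 47.9% of libraries for KLK4.

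UDP-glucuronosyltransferases of the UGT2B family inactivate androgens by conjugation. UGT2B15 went from 48.6, 50.1 and 49.8 CPM to 21.6, 20.5 and 21.4, with no overlap (log2 change -1.22 ± 0.0783 SE, edgeR FDR 5.06e-19). UGT2B10 went from 6.82, 6.29 and 5.58 CPM to 1.09, 1.55 and 2.10 (-1.96 ± 0.235 SE, edgeR FDR 8.77e-09). UGT2B17 had the opposite sign and was not called, at 1.29, 1.34 and 1.30 CPM under vehicle and 2.59, 3.17 and 2.16 under SNX631 (0.99, edgeR FDR 0.0183). UGT2B11 was at -0.34 and UGT2B28 at -0.08, and neither passed the test. These genes are close copies of each other, so reads could be assigned to the wrong member. 2 aldo-keto reductases of steroid metabolism, AKR1C1 and AKR1C2, were higher, at log2 changes of 1.53 and 1.31 (edgeR FDR 8.53e-09 and 1.41e-10), and are also near copies.

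Keratins and genes of secretory cells were among those raised. Of 9 keratins, 3 were called higher, against 1.75% of all genes, and 0 lower, with a median of 0.74. KRT19, of simple epithelia, went from 144, 151 and 147 CPM to 246, 241 and 252 (log2 change 0.74 ± 0.138 SE, edgeR FDR 0.000169). KRT15, of basal and progenitor layers, had 0, 1 and 2 counts under vehicle and 20, 6 and 16 under SNX631 and was called (edgeR FDR 0.000308), with the vehicle group too low for a stable fold. KRT80 had 4, 4 and 1 counts under vehicle and 12, 9 and 13 under SNX631 (edgeR FDR 0.00321). The luminal keratin KRT8 went from 459, 433 and 444 CPM to 665, 651 and 649, short of the fold limit (0.56, edgeR FDR 1e-11), while its partner KRT18 had a log2 change of -0.08. Thus the abundant keratins were separated between the groups in KRT19 and KRT8 by several times the spread of replicates.

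Of 15 neuroendocrine and secretory vesicle genes, 3 were called higher, against 1.75% of all genes, and 0 lower, with a median of 0.29: SYT4, CHGB and SCGN. CHGB, a granin of dense-core vesicles, went from 18.6, 17.7 and 20.8 CPM to 41.7, 41.5 and 39.6 (log2 change 1.10 ± 0.0813 SE, edgeR FDR 1.41e-16). SCGN, a calcium sensor, went from 1.53, 1.21 and 0.973 CPM to 2.96, 2.21 and 2.53 (1.05 ± 0.255 SE, edgeR FDR 0.00211), and its call was lost without vehicle replicate 2 (1.03), vehicle replicate 3 (0.91) or SNX631 replicate 1 (0.94). The defining markers CHGA (0.00), SYP (-0.02) and ENO2 (-0.11) were close to 0 on the log2 scale, and VGF was at -0.30.

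Among Wnt ligands and beta-catenin targets, 2 of 17 were called higher and 0 lower, against 1.75% of all genes higher, with a median of 0.22. The list does not hold WNT2, a ligand gene that was also called and is described with its region of chromosome 7. LGR5, a receptor that amplifies Wnt signals in stem cells, went from 10.5, 8.77 and 8.43 CPM to 27.2, 27.9 and 28.1, without overlap (log2 change 1.58 ± 0.11 SE, edgeR FDR 1.71e-17). WNT7B went from 4.59, 3.21 and 3.76 CPM to 5.25, 6.12 and 8.68 (0.80, edgeR FDR 0.000159), and was at 0.54 and not called without SNX631 replicate 3. The feedback targets AXIN2 (0.46) and RNF43 (0.51) passed an FDR of 0.05 but not the fold limit. Of 8 mesenchymal markers 1 was called, against 2.39% of all genes. It was FN1 (fibronectin), which went from 51.6, 44.5 and 37.8 CPM to 181, 139 and 141 (1.78 ± 0.103 SE, edgeR FDR 3.81e-16). VIM (-0.34), CDH2 (0.12) and ZEB1 (-0.70) were not called. COL3A1 and LUM, of the fibroblast markers, were called higher, COL3A1 with 0, 3 and 2 counts under vehicle and 10, 15 and 22 under SNX631, and LUM at 0.69. COL1A1 was at -0.16 and PDGFRB at 0.57, neither called. The summed fibroblast markers were thus higher in each SNX631 library, as given above, and their part in the FN1 result was not tested.

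Immediate-early genes and targets of ERK were split. EGR1 went from 12.1, 10.9 and 12.5 CPM to 6.03, 5.24 and 5.88 (log2 change -1.05 ± 0.129 SE, edgeR FDR 5.06e-09) and JUN from 82.8, 77.9 and 86.2 to 53.3, 48.5 and 53.0 (-0.67 ± 0.0704 SE, edgeR FDR 8.87e-11). DUSP6, an ERK phosphatase, went from 10.0, 10.8 and 9.54 CPM to 15.3, 16.1 and 16.2 (0.65 ± 0.117 SE, edgeR FDR 3.08e-05). The groups were separate in these 3, FOS was at -0.03, and 1 of 21 genes in the list was called higher and 2 lower. Over all genes 1.75% were called higher and 0.645% lower. Of 17 NF-kappaB subunits and targets, NFKBIZ, a nuclear IkB protein, was called higher (0.88) and NKILA lower. The interferon-induced ubiquitin ligase HERC5 went from 3.06, 3.82 and 2.08 CPM to 0.724, 0.516 and 0.647 (-2.22 ± 0.306 SE, edgeR FDR 1.07e-07), and its neighbour HERC6 at chr4:88378739-88506163 was also lower (-1.23, edgeR FDR 0.000202).

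Lists with no called gene covered much of the cell's growth program. Over all genes 2.39% were called, so 0 calls in lists this short are near that share. For DNA replication and G1/S, 0 of 24 genes were called, with a median log2 change of -0.03, and for mitosis and G2/M 0 of 24, with 0.01. edgeR's FDR was under 0.05 for 6 and 4 of these genes. Of 23 genes of ribosome biogenesis and MYC targets, 0 were called, 21 had a positive sign and 6 were higher at an FDR under 0.05, with a median of 0.10, while MYC went from 273, 251 and 272 CPM to 302, 283 and 278 (0.12, FDR 0.107). The lists of MHC class I presentation (median -0.03), epithelial junctions (-0.07), cytosolic heat shock proteins (-0.09), SMAD signalling (0.10), EGF-family ligands and receptors (-0.16), aryl hydrocarbon receptor targets (-0.03), steroid receptors and luminal factors (0.03) and prostate cancer surface antigens (-0.05) also had 0 calls. Hypoxia targets and glycolysis had a median of -0.21, with ALDOA at -0.40 and LDHA at -0.34, and 1 call, EGLN3 (0.63), which was lost without any 1 of 5 of the 6 libraries (0.54 to 0.67). The targets of the drug had no call either: CDK8 was at 26.6, 27.3 and 26.4 CPM under vehicle and at 28.3, 27.7 and 28.0 under SNX631, and CDK19 at 149, 148 and 150.1 and then at 196, 187 and 199. The CDK19 libraries were separate, below the fold limit (edgeR FDR 6.68e-10), and 0 of the 26 core Mediator subunits were called.

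**Figure D4:**
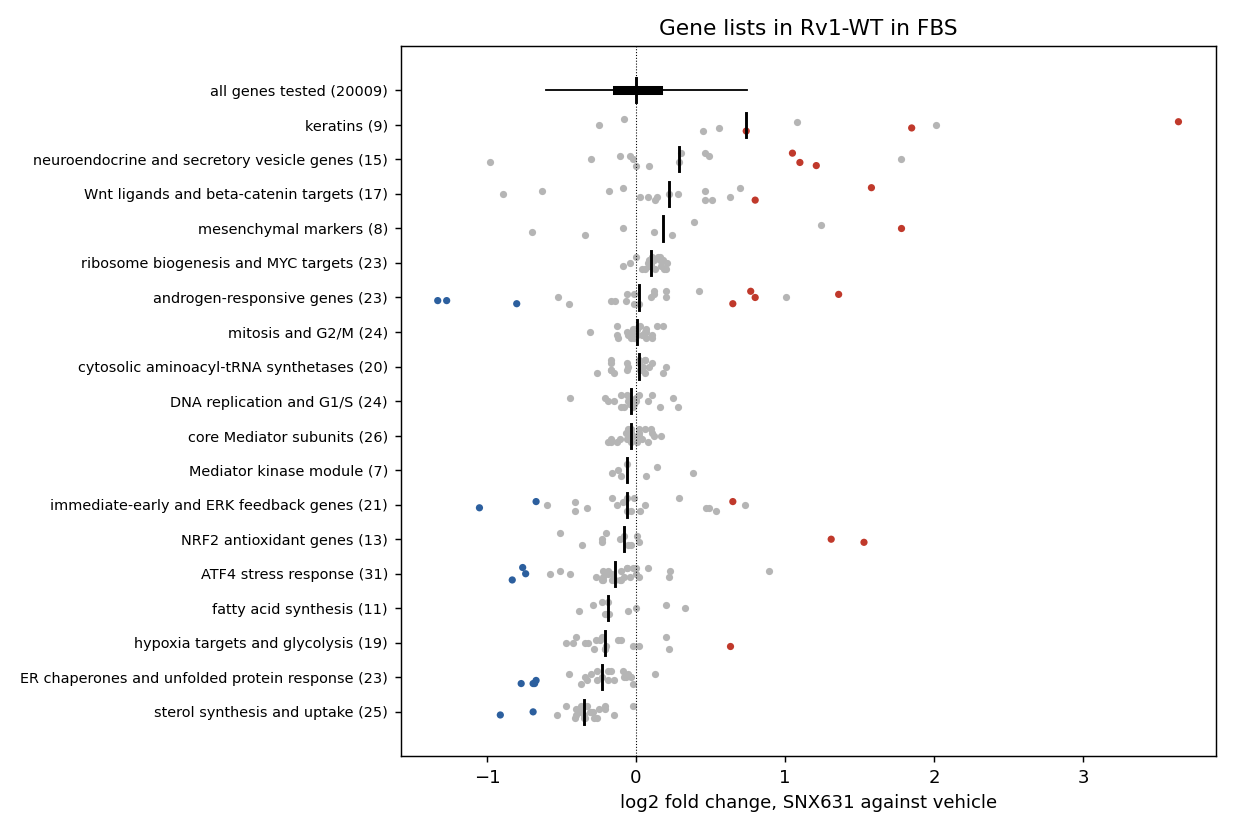
Log2 fold change of SNX631 against vehicle in Rv1-WT in FBS for each tested gene of 18 lists (points; red, called higher; blue, called lower; grey, not called; black tick, median), with the number of genes beside each name. The top row shows all 20009 genes tested (thick bar, middle 50%; thin bar, middle 90%); the sterol list has the lowest median, at -0.35, and the keratins the highest, at 0.74.

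2 regions of chromosome 7 held several called genes, and were examined after their values were seen. In the HOXA cluster (chr7:27092993-27250493, GRCh38), which patterns the body axis and is read in order along the chromosome, 24 genes were tested. Of these, 4 were called higher and 2 lower, against 1.75% and 0.645% of all genes. The 4 genes called higher, HOXA10-AS, HOXA13, HOTTIP and EVX1, lay on the 5' side of the cluster, and the 2 called lower, HOXA-AS3 and HOXA7, lay on the 3' side of them. At the 5' end of the cluster HOXA13 went from 35, 35 and 48 counts to 171, 149 and 203, or from 2.51 ± 0.546 to 10.8 ± 0.378 CPM (SD, n = 3), with no overlap (log2 change 2.11 ± 0.167 SE, edgeR FDR 2.4e-15). The span of HOTTIP (chr7:27198575-27207259) overlaps HOXA13 on the other strand and runs beyond it, so their reads cannot be told apart with certainty. HOTTIP had 2, 1 and 1 counts under vehicle and 6, 8 and 12 under SNX631. It lost its call without vehicle replicate 2 (2.46) or 3 (2.44) or without SNX631 replicate 3 (2.39). EVX1 went from 0.882, 0.736 and 1.49 CPM to 4.28, 4.94 and 4.53 (2.14 ± 0.262 SE, edgeR FDR 4.48e-09). HOXA10-AS was at 0.67 (FDR 0.0091) and HOXA7 at -0.76 (FDR 5.9e-05), and the span of HOXA-AS3 (chr7:27129977-27155928) overlaps HOXA7. HOXA10 was at -0.35, HOXA9 at -0.23, HOXA6 at -0.15 and HOXA5 at -0.08, below the fold limit, and HOXA4 (-0.73), farther to the 3' side, was not called (FDR 0.0177). Counts were fractional in 41.7% of libraries for HOXA13 and in 37.5% for HOTTIP.

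In the other region, from CAV2 and CAV1 to CTTNBP2 (chr7:116287380-117874139), 6 of 13 tested genes were called higher, against 1.75% of all genes, and 0 lower. CAV1, the coat protein of caveolae, went from 2.41, 2.41 and 3.31 CPM to 8.08, 7.60 and 7.50 (log2 change 1.51 ± 0.172 SE, edgeR FDR 5.39e-10). WNT2 went from 1.59, 1.47 and 2.47 CPM to 4.95, 4.28 and 5.66 (1.44 ± 0.197 SE, edgeR FDR 7.75e-08), and ST7 from 66.4, 69.2 and 72.4 to 110, 124 and 117 (0.76, FDR 1.17e-15). CFTR (3.48), ST7-OT4 (1.85) and CTTNBP2 (0.87) were the others. The groups did not overlap in these genes, whereas MET, between CAV1 and CAPZA2, was at 13.7 and 14.5 CPM on average (0.08, FDR 0.668) and CAPZA2 at 0.13. ST7 and ST7-OT4 overlap, with fractional counts in 100% and 95.8% of libraries. The spans of CFTR and CTTNBP2, on opposite strands, also overlap at their ends. Whether either region holds more calls than its length and gene content would give was not tested.

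The treatment was compared with the same treatment in androgen-depleted medium, where the cells had first been passaged in CSS and were seeded at a higher density, so medium and these steps cannot be told apart. SNX631 called 2.97% of genes higher and 1.25% lower in CSS. Of the 350 genes higher in FBS, 270 (77.1%, or 45.4% of the CSS list) were also called higher in CSS, and of the 129 lower genes 58 (45.0%, or 23.1% of the CSS list). The median effect of the 350 in CSS was 1.02, and that of the 129 was -0.58. No gene of either set was called in the opposite direction. A test of the difference between the effects (CSS minus FBS) called 59 genes (0.295%), 49 higher and 10 lower, or 35 and 13 with library size alone as the scale.

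The genes whose effect differed with the medium include ER chaperones. HSP90B1, lower by 0.67 in FBS, was at 1009, 1058 and 1067 CPM under vehicle and at 1068, 1173 and 1134 under SNX631 in CSS, and the difference in log2 change was 0.77 ± 0.0577 SE (edgeR FDR 8.34e-15). PDIA4 was at 174, 176 and 184 CPM and then at 194, 205 and 190.5 in CSS (difference 0.83 ± 0.0712 SE, FDR 1.39e-12), and CALR at 482, 519.8 and 540 and then at 622, 677 and 625 (0.65 ± 0.0623 SE, FDR 4.96e-11). In CSS the vehicle libraries of these 3 genes lay far below those in FBS, and the SNX631 libraries lay above them. Of the 23 ER genes 5 were called in this test, against 0.295% of all genes. CRELD2 and DERL3 were the others, and each of the 5 had the higher effect in CSS. Other members stayed below 0 in CSS, among them HSPA5 at -0.23 (difference 0.54 ± 0.0721 SE, under the fold limit) and HERPUD1 at -0.41 (difference 0.27 ± 0.068 SE, FDR 0.015), with SEL1L at -0.41, ERN1 at -0.49 and ATF6 at -0.33, against -0.19, -0.09 and -0.08 in FBS. MYC was at 201, 205 and 223 CPM and then at 370.3, 353 and 360.4 in CSS (difference 0.67 ± 0.0691 SE, FDR 6.77e-10), and TFRC, the transferrin receptor, at 302, 311 and 315 and then at 426, 440.2 and 444 (0.61 ± 0.0624 SE, FDR 6.75e-10). For the 25 sterol genes the median difference was 0.43, with 1 called, LSS (0.70), against 0.295% of all genes. BTG1 (0.07), PDK4 (-0.10), ALB (0.03) and FN1 (0.15) had differences that did not pass the test.

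In Rv1-Luc in FBS, SNX631 called 2.32% of genes higher and 1.34% lower, among them 209 (59.7%) of the 350 and 72 (55.8%) of the 129 in the same direction. The test of the difference (Rv1-Luc minus Rv1-WT) called 35 genes (0.175%). Without vehicle replicate 1 of Rv1-Luc it called 66 genes, and without its SNX631 replicate 2 it called 53. SYT4 was at 62.4, 67.4 and 63.5 CPM and then at 92.4, 92.7 and 85.2 in Rv1-Luc, a smaller rise than in Rv1-WT (difference -0.73 ± 0.0705 SE, edgeR FDR 6.88e-11). LRRC8A, a volume-regulated channel, was at 277, 243 and 246 CPM and then at 452, 427 and 441 in Rv1-Luc (difference 0.88 ± 0.0578 SE, FDR 2.55e-17), where Rv1-WT had 576, 556 and 572 CPM and then 555, 509 and 527. KLK3 had a log2 change of 0.23 in Rv1-Luc, and its difference was 1.49 ± 0.196 SE (FDR 4.49e-07). 1 gene was called in opposite directions, PTHLH, which encodes the parathyroid hormone-related protein and was singled out after its values were seen. It went from 18.1, 14.5 and 17.5 CPM to 7.24, 7.67 and 8.52 in Rv1-WT in FBS (log2 change -1.09 ± 0.14 SE, FDR 1.31e-08) and changed by 1.02 in Rv1-Luc (FDR 0.000129), a difference of 2.12 ± 0.249 SE (FDR 2.14e-08). The ER list had a median of -0.30 in Rv1-Luc, with HSP90B1 at -1.03, HSPA5 at -0.94 and PDIA4 at -1.08.

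The derivatives with 1 active kinase shared part of the response. In dKO-8, with 0.655% of genes called higher and 1.05% lower, 48 (13.7%) of the 350 and 28 (21.7%) of the 129 were called in the same direction, and the median effects were 0.30 and -0.32. In dKO-19, with 1.87% higher and 1.53% lower, these were 124 (35.4%) and 49 (38.0%), with median effects of 0.54 and -0.53. By the paper's account, dKO-8 held less CDK8 protein than parental cells, while dKO-19 held far more CDK19. The lines thus differ in the level of the kinase as well as in which kinase is present. 35 genes were called higher and 15 lower in all 5 of Rv1-WT in FBS, Rv1-WT in CSS, Rv1-Luc, dKO-8 and dKO-19. Chosen after their values were seen, examples among those higher are TMPRSS2, ELL2, KLK4, KRT15, SFN, HES7 and the mucin gene MUC13. HES7 is a transcriptional repressor that acts within the Notch pathway. Examples among those lower, chosen in the same way, are SLC45A3, NKILA, DDIT3, CHAC1, NIBAN1, EGR1, DHRS2 and HOXA7. MUC13 went from 33.8, 31.1 and 35.2 CPM to 79.9, 75.0 and 73.2 in Rv1-WT in FBS. DDIT3 had log2 changes of -0.74 in Rv1-WT in FBS, -1.46 in dKO-8, -1.20 in dKO-19 and -1.18 in Rv1-Luc. The ATF4 list had medians of -0.70 and -0.69 in dKO-8 and dKO-19 against -0.14 in Rv1-WT in FBS. In the kinase-dead lines its medians were -0.15 (dKO-8M) and -0.22 (dKO-19M), with 0 and 3 genes called lower, so its shift in Rv1-WT was no larger than theirs. Over all genes 0.015% were called in dKO-8M and 0.09% in dKO-19M. FN1 (-0.53 and -0.14) and HSP90B1 (0.16 and 0.14) were not called in dKO-8 or dKO-19.

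**Figure D5:**
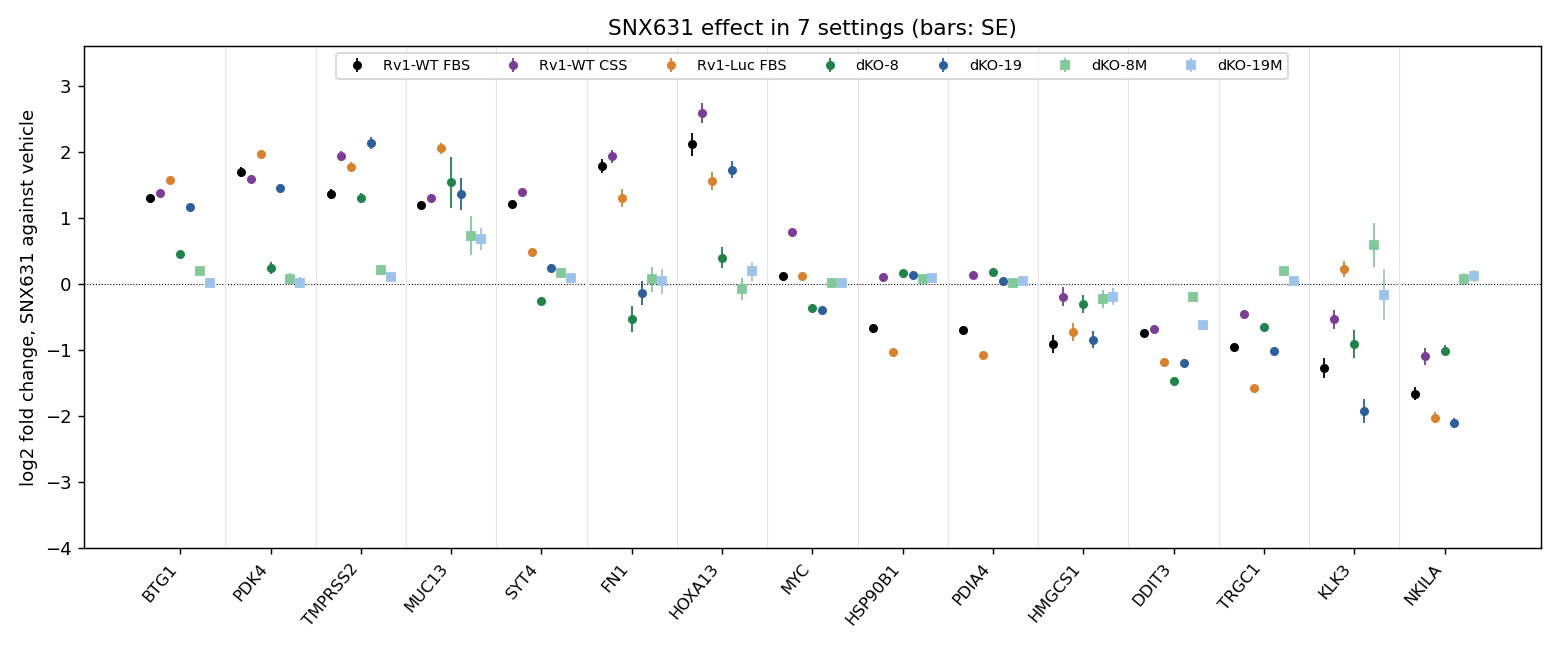
Log2 fold change of SNX631 against vehicle with its SE for 15 genes in 7 settings: Rv1-WT in FBS (black), Rv1-WT in CSS, Rv1-Luc, dKO-8 and dKO-19 (coloured circles), and the kinase-dead dKO-8M and dKO-19M (pale squares). TMPRSS2, MUC13, DDIT3 and NKILA have the same sign in the first 5 settings, and HSP90B1 and PDIA4 lie below 0 in Rv1-WT in FBS and Rv1-Luc but above 0 in Rv1-WT in CSS.

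In the derivatives with a kinase-dead protein few genes were called. SNX631 called 3 genes in dKO-8M (0.015%) and 18 in dKO-19M (0.09%), or 9 there without vehicle replicate 1 and 7 without SNX631 replicate 3. Of the 350 genes called higher in Rv1-WT in FBS, 0 were called higher in either, and their median effects were 0.04 and 0.03. Of the 129 lower genes 4 were called lower in dKO-19M, DDIT3 (-0.62), NIBAN1 (-0.83) and 2 genes with no symbol, ENSG00000278952 (-0.73) and ENSG00000285133 (-0.71), and 0 in dKO-8M, with medians of -0.13 and -0.14. Subtracting the mean effect of both kinase-dead lines from that in Rv1-WT left 306 called genes (1.53%), 235 higher and 71 lower. BTG1 was at 308, 285 and 278 CPM and then at 301, 289 and 291 in dKO-19M. In dKO-8M it went from 319, 320.3 and 309 CPM to 369.9, 355 and 357, with no overlap and under the fold limit (log2 change 0.19, edgeR FDR 0.00378). Its difference between Rv1-WT and both lines was 1.20 ± 0.0464 SE (edgeR FDR 1.57e-28). PDK4, at 20.0, 18.6 and 18.1 CPM and then at 19.7, 20.7 and 19.6 in dKO-8M and at 19.6, 18.9 and 17.9 and then at 17.5, 19.9 and 19.6 in dKO-19M, had a difference of 1.64 ± 0.0931 (FDR 8.16e-21). TRGC1 (-1.09), HSPA5 (-0.80), HSP90B1 (-0.75), PDIA4 (-0.72), HMGCS1 (-0.70), KLK3 (-1.48) and TMPRSS2 (1.20) were called as well. Of the sterol list HMGCS1 alone was called in this test, and the list had medians of -0.15 in dKO-8M and -0.17 in dKO-19M, against -0.35 in Rv1-WT. In other lines with an active kinase in FBS its medians were 0.02 (dKO-8), -0.29 (dKO-19) and -0.16 (Rv1-Luc). ALB and UGT2B15 were not called, with SE of 0.232 and 0.584 for the difference (FDR 0.028 and 0.783). UGT2B15 was also below 0 in the kinase-dead lines, at -1.04 in dKO-8M and -0.61 in dKO-19M, against -1.22 in Rv1-WT. It was called in neither kinase-dead line. The kinase-dead lines also lack both endogenous kinases and carry vectors, which cannot be told apart from kinase activity in this contrast. For the ER list, dKO-8 and dKO-19, which hold an active kinase, had median log2 changes of 0.01 and -0.01, with 0 genes called. The kinase-dead lines had medians of -0.01 (dKO-8M) and 0.03 (dKO-19M). The fall of this list in Rv1-WT was thus not seen in derivatives with or without an active kinase. Whether that fall depends on kinase activity was not tested apart from the other differences between the lines.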

How the data were processed

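RNA of 48 libraries was sequenced by the authors, with strand-specific libraries per the labels. The deposited table holds expected counts per gene, made by the authors: 81.6% of the nonzero values are whole and the rest hold fractions, as when a read shared by several genes is divided. The submitters' processing notes name FastQC, cutadapt 2.8, STAR 2.7.2b, featureCounts and Subread 2.0.3 and the builds GRCh38.p13 and GRCm39. How strand was used in counting is not given in the sources used here.

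From these counts, rounded to whole numbers, 20009 genes were kept by filterByExpr of edgeR 4.0.16 (minimum count 10, minimum total 15; limma 3.58.1, R 4.3.3). All 48 libraries entered 1 quasi-likelihood fit (robust, 1 mean per group, factors by the trimmed mean of M values, 32 residual degrees of freedom, two-sided F-test), and p-values were adjusted by Benjamini-Hochberg over all genes within each comparison. Genes were called at an FDR under 0.01 and a fold change over 1.5, as in the study's methods. Fold changes are fitted log2 changes, and the SE is the size of the change divided by the root of F. The SNX631 effect and its difference from the effects in Rv1-WT in CSS, in Rv1-Luc and in the mean of dKO-8M and dKO-19M were tested. DESeq2 1.42.0, limma-voom and other alternatives were run beside it, and the scripts were tested on simulated data. A group with at most 3 counts in each library was taken to be at the floor. Reads are not independent molecules, so intervals of counting error alone would be too narrow.

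The comparison, lists and alternatives were chosen with earlier results of these data known. Genes named are the 15 highest and 15 lowest called log2 changes among genes with groups that do not overlap and 1 CPM or more on average, the 10 lowest p-values, the 5 lowest for each difference, up to 6 called genes of a list, genes fixed by name, and others where the text says that they were chosen after their values were seen. Abundant called genes (a mean of at least 100 CPM) and genes of the chromosome 7 regions were also chosen then. Positions are those of GENCODE v29 (GRCh38), matched by identifier for 470 of the 479 called genes, and 19989 of the 20009 identifiers matched a table of gene names. Promoter windows are RefSeq's. The 2 transgene entries were left out, and some genes that the rule names are not reported here. Of other genes named, counts were fractional in 58.3% of libraries for DDIT3, 50% for KRT8, 47.9% for NFKBIZ and 37.5% for KRT15 and KRT19.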

Additional observations from a re-analysis of the deposited data

Results flagged for a closer look

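Each value here is a difference between the SNX631 effects of 2 settings, tested as an interaction by edgeR's quasi-likelihood test. Against the effect in Rv1-WT in FBS, the effect in CSS differed for 59 genes. The 5 with the lowest p-values were HSP90B1 (0.77), PDIA4 (0.83), CALR (0.65), TFRC (0.61) and MYC (0.67), all with the more positive effect in CSS. HSP90B1 and PDIA4 were called lower in FBS (log2 changes -0.67 and -0.69) and were at 0.11 and 0.14 in CSS. CALR, at -0.34 in FBS and 0.32 in CSS, was under the fold limit in both. MYC was called higher in CSS (0.78), against 0.12 in FBS, and TFRC was at 0.50 and -0.11.

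The effect in Rv1-Luc differed for 35 genes. The leading ones were LRRC8A (0.88), VIL1 (1.11) and ZNF385B (1.23), with the more positive effect in Rv1-Luc, and SYT4 (-0.73) and TRGC1 (-0.61), with the more negative effect there. VIL1, the villin of microvilli, was at 24.0, 19.7 and 23.6 CPM under vehicle and at 64.0, 50.8 and 58.8 under SNX631 in Rv1-Luc, against 70.9, 64.5 and 61.2 and then 84.2, 75.0 and 75.6 in Rv1-WT. ZNF385B, a zinc finger gene, was at 5.67, 5.95 and 5.40 CPM and then at 16.9, 16.8 and 19.7 in Rv1-Luc, against 24.3, 27.5 and 23.5 and then 29.9, 37.1 and 33.7 in Rv1-WT. In both genes the vehicle libraries of Rv1-Luc lay below those of Rv1-WT.

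The effect in Rv1-WT differed from the mean effect in dKO-8M and dKO-19M for 306 genes, with BTG1 (1.20), TRGC1 (-1.09), TARP (-1.09) and PDK4 (1.64) leading. The groups have 3 libraries each, too few to look for single libraries apart from their group gene by gene.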

How the results depend on the processing

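The number of genes called depended on the threshold. An FDR under 0.05 with no fold limit gave 2895 genes (1537 higher, 1358 lower) for the effect in Rv1-WT in FBS, 627 (441 and 186) for the difference CSS minus FBS, 297 (186 and 111) for Rv1-Luc minus Rv1-WT and 1824 (961 and 863) for Rv1-WT minus the kinase-dead lines. A direct test against 1.5-fold gave 111 (92 and 19), 1 (1 and 0), 5 (5 and 0) and 32 (26 and 6). Other settings kept the 479 calls within 391 to 519, with 390 to 478 of the same genes, and 69.0% to 74.7% of them higher, against 53.1% with no fold limit and 82.9% in the direct test. No scaling moved the median log2 change of all genes past 0.012. Of the differences, CSS minus FBS had 19 genes lower with no filter on low counts and 16 with the replicate block, against 10, and Rv1-Luc minus Rv1-WT had 73 genes (47 and 26) with no filter and 19 lower with DESeq2 and 21 with the block, against 35 (23 and 12).

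Leaving out 1 library gave 405 to 442 calls (291 to 320 higher, 114 to 127 lower) for Rv1-WT in FBS. It gave 40 to 67 (33 to 49 and 7 to 18) for CSS minus FBS, with 18 lower without CSS SNX631 replicate 1, 24 to 66 (16 to 37 and 8 to 29) for Rv1-Luc minus Rv1-WT, with 66 without Rv1-Luc vehicle replicate 1, and 263 to 325 (206 to 252 and 57 to 73) for Rv1-WT minus the kinase-dead lines. In dKO-8M it gave 0 to 1 and in dKO-19M 7 to 22 (0 to 12 higher, 7 to 18 lower). Leaving out libraries other than the 6 of Rv1-WT in FBS was added after the data were seen. The causes were not tested.

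Replicate numbers are shared between groups, but same-numbered libraries did not deviate together beyond 0.1 (r of 0.046, 0.038 and 0.043 over 15481 genes, against -0.033 to -0.008 for other pairs), although each correlated best with its own number. A fit with the replicate block called 465 genes, 451 of them among the 479, and 487 with the 6 libraries alone.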

Other observations

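A few genes called in Rv1-WT in FBS were called in the opposite direction in dKO-8 or dKO-19, at shares near those of all genes tested. They were singled out after their values were seen. PTHLH had log2 changes of -1.09 and -0.78 in Rv1-WT (FBS and CSS), 2.71 in dKO-19 (edgeR FDR 9.2e-20) and 0.63 in dKO-8, which did not pass the test. SLC4A10, a bicarbonate transporter, went from 10.1, 8.84 and 11.1 CPM to 16.9, 17.4 and 18.1 in Rv1-WT in FBS (log2 change 0.80) and had log2 changes of -1.29 in dKO-8 (edgeR FDR 5.84e-07) and -1.13 in dKO-19 (FDR 2.38e-05). STXBP6 was at 0.77 in Rv1-WT in FBS and -1.57 in dKO-19 (FDR 2.64e-15), and PCDH19 at 0.76 and -1.71 (FDR 8.03e-12). In all, 6 of the 350 genes called higher in Rv1-WT in FBS were called lower in dKO-8 and 4 in dKO-19, where 1.05% and 1.53% of all genes were. Of the 129 lower genes 1 and 2 were called higher, where 0.655% and 1.87% of all genes were. Such counts show nothing particular to the called genes. The difference from Rv1-WT was not tested in these 2 lines.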
